A study of Mus musculus with 48 samples.

Results

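The cholesterol genes described here are 31 genes of sterol synthesis, its regulation and the export of cholesterol from the cell, of 47643 genes counted in all. They were chosen by name from the pathway, by a rule that uses no measured value but with earlier results of these data known, and each of the 31 symbols matched a single Ensembl gene in the count files. The data are RNA bound to astrocyte ribosomes in the dorsal hippocampus of transgenic mice (Aldh1l1:L10a-eGFP), in which the Aldh1l1 promoter drives a ribosomal protein tagged with green fluorescent protein (GFP), so that a GFP antibody pulls down ribosomes of cells in which that promoter is active. Full astrocytes (Astro) were set against perisynaptic astrocytic processes (PAP), thin astrocyte extensions that lie at synapses, to ask which ribosome-bound transcripts differ between them. All animals carried the transgene and none had another labelled treatment; age and sex are not given in the sources used here. Animals C1, C2 and C3 each gave both compartments, and 8 technical replicates were summed to 1 library per animal and compartment, so that n = 3 in each group.

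Cholesterol does not cross the blood-brain barrier on lipoproteins, so the brain makes its own, and astrocytes are known as a main source for neurons. Acetyl-CoA is turned through mevalonate and isoprenoid units into squalene, which is closed to a ring and trimmed to cholesterol. When sterols are scarce, Scap carries the SREBP transcription factors (Srebf1, Srebf2) out of the endoplasmic reticulum to be activated, and the Insig proteins hold them back when sterols are plentiful. Surplus cholesterol is stored as esters or exported by ABC transporters onto lipoprotein particles, a programme switched on by liver X receptors such as Nr1h2.

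Sequences just upstream of the transcription start are shown for 3 members, known SREBP targets whose libraries did not overlap between Astro and PAP. These 3 are examples. Acat2, Nsdhl, Srebf1 and Nr1h2 also did not overlap and had a RefSeq promoter entry, and are not shown. PAP levels of the 3 shown lay below Astro for Hmgcs1 and Idi1 and above it for Insig1, and of the 3 only the Idi1 difference passed the test below. The sequences are the 250 bases before the RefSeq start on GRCm38.p6, all on the plus strand, at chr13:119690101-119690350 for Hmgcs1, chr13:8885356-8885605 for Idi1 and chr5:28071162-28071411 for Insig1. The GENCODE M21 gene models of Idi1 and Insig1 start inside these stretches, at 8885501 and 28071363. Capitals mark matches on either strand to TCACNCCAC (the core of a sterol regulatory element), CCAAT (the NF-Y box), GGGCGG (the Sp1 box) and CACGTG (an E-box), and no base of the 3 sequences lay in more than 1 match.
Hmgcs1: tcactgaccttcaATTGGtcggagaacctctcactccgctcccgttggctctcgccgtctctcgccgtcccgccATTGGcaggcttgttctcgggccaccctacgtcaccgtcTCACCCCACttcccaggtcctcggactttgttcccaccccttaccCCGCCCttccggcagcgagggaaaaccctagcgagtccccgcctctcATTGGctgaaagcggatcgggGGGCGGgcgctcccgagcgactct
Idi1: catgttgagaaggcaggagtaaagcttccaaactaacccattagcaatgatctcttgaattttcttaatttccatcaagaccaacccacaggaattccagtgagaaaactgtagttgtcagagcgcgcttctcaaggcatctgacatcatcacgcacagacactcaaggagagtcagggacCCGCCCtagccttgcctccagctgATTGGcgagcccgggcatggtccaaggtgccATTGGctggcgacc
Insig1: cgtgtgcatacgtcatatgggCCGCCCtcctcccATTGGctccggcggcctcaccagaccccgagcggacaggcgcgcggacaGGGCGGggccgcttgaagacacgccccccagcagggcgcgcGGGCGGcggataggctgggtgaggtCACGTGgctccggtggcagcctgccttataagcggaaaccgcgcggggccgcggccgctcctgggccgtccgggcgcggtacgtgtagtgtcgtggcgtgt

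Of the 31 members, 26 had an entry in the RefSeq promoter table, and Fdps, Fdft1, Sqle, Abcg1 and Npc1 did not. The CCAAT letters occurred in a promoter window of 300 bases (250 before and 50 after the start) of 21 of the 26 members, against 41.1% of the 27025 genes in the table. GGGCGG occurred in 23 of 26, against 38.2% of genes, and CACGTG in 6 of 26, against 8.09%. The sterol regulatory letters occurred only in Hmgcs1 among the 26, against 1.44% of genes, and began 137 bases before its start. A match describes letters and is not a bound site, and a window without a match says nothing about the factor.

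The pooled libraries held 18707844 to 20293538 counts in Astro and 1829962 to 2980984 in PAP, so that 3 counts, taken as the floor of detection, equalled 0.1478 to 0.1604 CPM in Astro and 1.006 to 1.639 CPM in PAP. CPM is the count scaled to a common library total; levels below were also scaled by TMM factors, and depth moved with compartment in every animal. The 12 astrocyte markers summed to 16001 to 21790 CPM in Astro and 2855 to 8277 CPM in PAP, with 1 of them at 0 counts in the PAP library of animal 1. The 10 neuronal markers summed to 637 to 1099 CPM in Astro and 476 to 1208 in PAP, and the 11 oligodendrocyte lineage markers to 806 to 888 and 575 to 1016. The 8 microglial markers summed to 42.1 to 89.3 CPM in Astro and 21.5 to 60.7 in PAP, where Cx3cr1, P2ry12, Tmem119 and Aif1 were at 0 in every library. The 6 endothelial markers summed to 5.00 to 13.1 and 14.9 to 24.5 CPM, and the 4 ependymal and choroid plexus markers to 2418 to 19499 and 640 to 6612. The part of these other cells in the results below was not tested; for depth, all libraries were also thinned to equal totals, where 1688 of 11212 tested genes and 0 members were called, with Idi1 at a log2 fold change of -3.27 (-3.47 at full depth). In such bulk libraries, fewer cells of a type and less RNA per cell cannot be told apart.

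The whole cholesterol pathway was detected on astrocyte ribosomes. Every member had counts in all 3 Astro libraries and in at least 1 PAP library, and 25 of 31 had a count in every PAP library. More than 3 counts in each of the 6 libraries were found for 21 members, against 5643 of 14618 tested genes. The 31 members together stood at 2780, 3184 and 2621 CPM in Astro animals 1 to 3 and at 1792, 1811 and 2280 CPM in PAP, so the summed level did not overlap and the PAP mean was 0.685 of the Astro mean. The lack of overlap rested on Hmgcs1 alone: without it the sums were 2065 to 2835 CPM in Astro and 1677 to 2195 in PAP, a ratio of means of 0.764, and leaving out any other member kept the groups apart. This step was added after seeing the data. All 31 passed the filter on low counts; in mean CPM the median member lay at percentile 74.8 of tested genes in Astro and 64.2 in PAP.

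**Figure D1:**
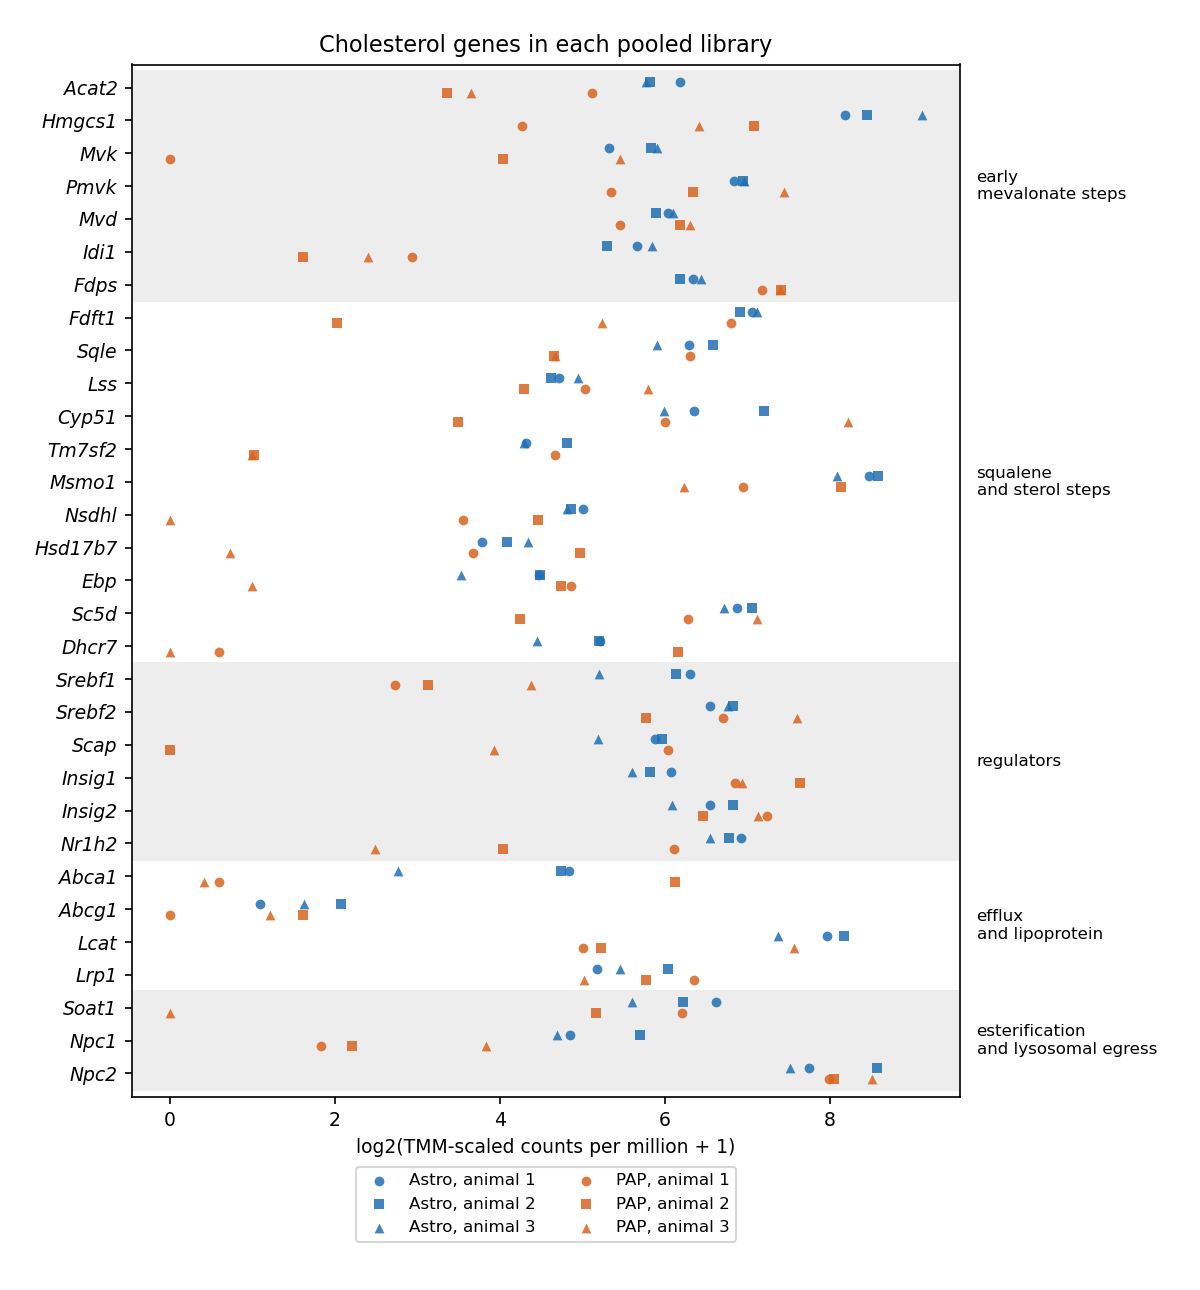
Level of each of the 31 cholesterol genes in each of the 6 pooled libraries, as log2(TMM-scaled CPM + 1) on the horizontal axis, with genes grouped by role. Blue marks are Astro and orange marks PAP; circles, squares and triangles are animals 1, 2 and 3. Astro marks lie close together for most genes, PAP marks are spread, and 6 genes have a PAP library at 0.

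The edgeR quasi-likelihood test of PAP against Astro called 1 member at an adjusted p under 0.05. That member was Idi1, which was lower in PAP, and 0 members were higher. Over all 14618 tested genes, 21.3% were called, 5.92% higher and 15.4% lower. Without adjustment, 6 of 31 members had p under 0.05 (Idi1, Hmgcs1, Insig1, Srebf1, Fdps and Npc1), against 4519 of all tested genes. The log2 fold change was negative in 20 members and positive in 11, with a median of -0.87 beside -0.53 over all tested genes. The order of these medians was not stable: with the animal as a block they were -1.35 for the members, 25 of them negative, and -1.63 for all genes. The members' median was also above that of all genes in voom (-1.40 and -1.62) and without PAP animal 1 (-0.64 and -0.88) or 3 (-0.81 and -0.95), and both were -1.04 without a filter. For the other 30 members the test does not show that the compartments are alike, since the SE of the log2 fold change reached 2.00. Groups did not overlap in 10 members (8 lower and 2 higher in PAP), where 46.0% of all tested genes did not overlap.

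**Figure D2:**
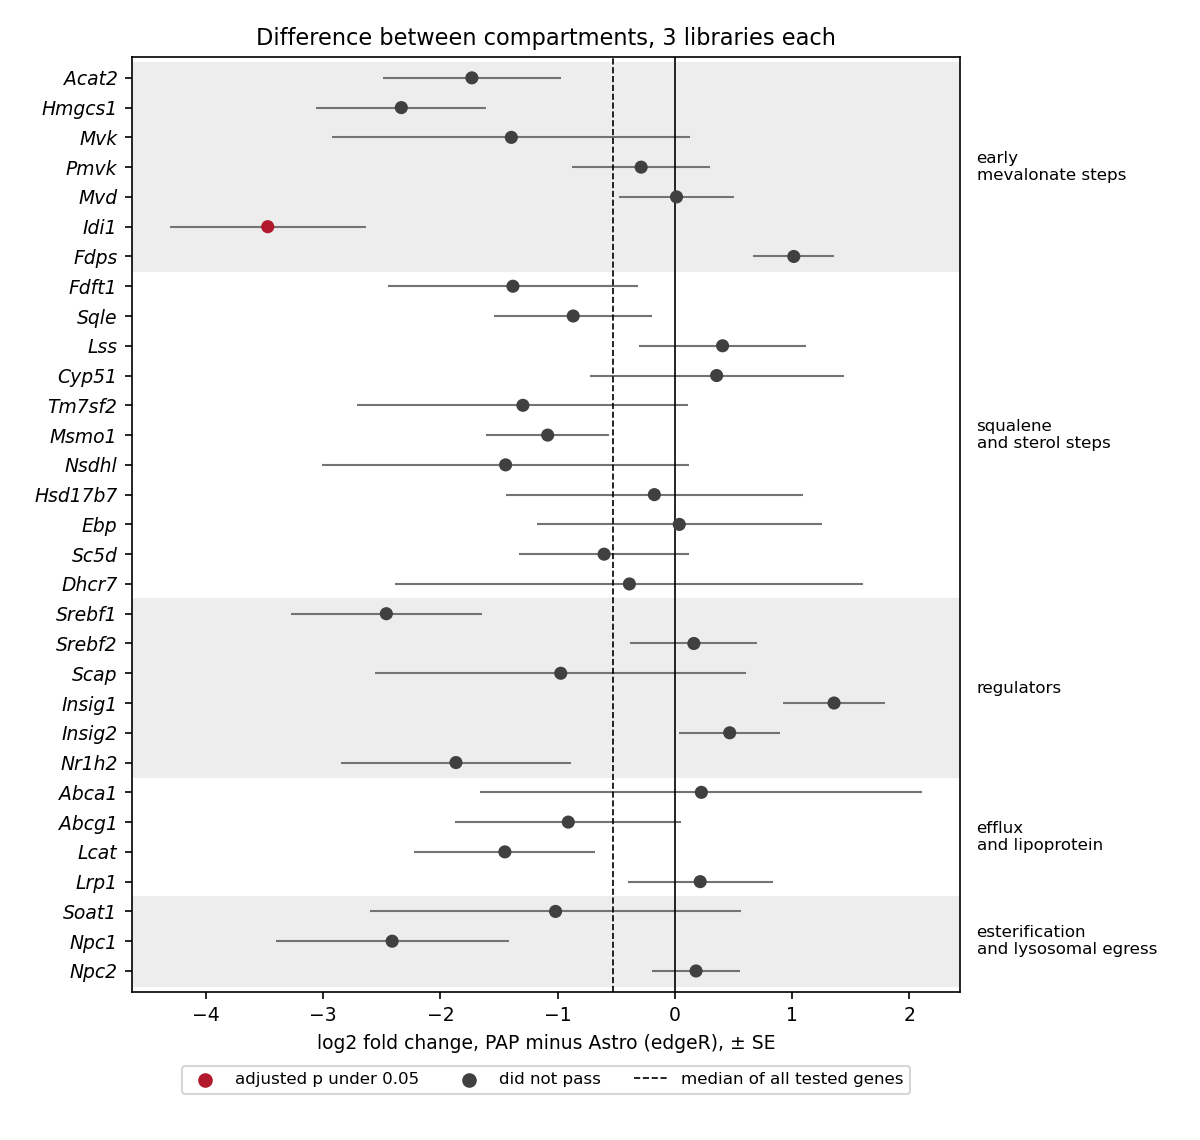
Log2 fold change of PAP minus Astro with its SE for each member (edgeR, 3 libraries a group), by role. The solid line is 0 and the dashed line is the median of all tested genes, -0.53. Idi1, in red at -3.47, is the only member past the threshold, and Insig1 (1.36) and Fdps (1.01) lie farthest to the right.

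Among the 7 enzymes from acetyl-CoA to farnesyl pyrophosphate, 1 was called lower, 0 higher, and the median log2 fold change was -1.39. Their summed level was 709, 751 and 1002 CPM in Astro animals 1 to 3 and 286, 482 and 562 CPM in PAP, with no overlap; without Hmgcs1 the sums were 402 to 446 and 267 to 478 CPM and overlapped. Per kilobase of transcript, Idi1 had the lowest level of the 7 in both compartments, at 15.9 CPM in Astro and 1.43 in PAP.

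Idi1 (ENSMUSG00000058258, chromosome 13, 8885501 to 8892451) encodes the isomerase that makes the reactive isoprenoid building block. It stood at 49.9, 38.3 and 56.4 CPM in Astro animals 1 to 3 and at 6.63, 2.06 and 4.30 CPM in PAP. Each animal was lower in PAP, and the highest PAP library lay far below the lowest Astro library. Its mean was 48.2 ± 9.16 CPM in Astro and fell to 4.33 ± 2.29 CPM in PAP (SD, n = 3). By edgeR the log2 fold change was -3.47 ± 0.84 (SE), adjusted p 0.0298. The PAP values rest on 13, 4 and 13 counts, of which a single technical replicate held at most 3. With the animal as a block the log2 fold change was -3.60 and the adjusted p 0.206, and with all libraries thinned to equal depth they were -3.27 and 0.0605. Leaving out Astro animal 1, 2 or 3 also ended the call, at adjusted p of 0.182, 0.154 and 0.191, with log2 fold changes of -3.45, -3.58 and -3.32; in those fits 115 to 140 of all genes were called. An unnamed opposite-strand gene overlaps Idi1 exons and strand use in counting is not given, so its reads cannot be told apart from those of Idi1; the same holds for Hmgcs1.

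Hmgcs1 (ENSMUSG00000093930, chromosome 13, 119690379 to 119708260), the synthase that commits acetyl units to the pathway, stood at 289, 349 and 556 CPM in Astro and at 18.4, 134 and 84.6 CPM in PAP. It was lower in PAP in 3 of 3 animals without overlap, by a mean factor of 5.04. Its log2 fold change, -2.33 ± 0.73 (SE), did not pass in edgeR (adjusted p 0.0696). Without the PAP library of animal 1, the lowest, the log2 fold change was -1.91 and the adjusted p 0.0342. Without any other single library the adjusted p was 0.0505 to 0.245. Fits without 1 PAP library, used here and below, called 4157, 4037 and 4586 of all genes without animal 1, 2 and 3. Acat2, which joins the first acetyl units, stood at 72.0, 55.4 and 53.6 CPM in Astro and 33.7, 9.28 and 11.6 in PAP, again without overlap (log2 fold change -1.73 ± 0.76, adjusted p 0.183, and -2.57 with 0.0306 without PAP animal 1, against 0.154 to 0.547 without any other single library).

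Fdps (ENSMUSG00000059743, chromosome 3, 89093588 to 89101959) joins isoprenoid units to farnesyl pyrophosphate, the branch point to sterols. Its level was 80.0, 71.8 and 86.2 CPM in Astro and 144, 170 and 167 CPM in PAP. All 3 PAP libraries lay above all 3 Astro libraries, and both groups were tight, at 79.3 ± 7.19 and 160 ± 13.8 CPM (SD, n = 3). Its log2 fold change, 1.01 ± 0.34 (SE), did not pass in edgeR (adjusted p 0.0917). A same-strand gene model overlaps Fdps exons, so part of its reads may have been assigned elsewhere.

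The mevalonate kinases and the decarboxylase overlapped between compartments and did not pass the test. Mvd, the decarboxylase, had means of 63.6 ± 4.58 CPM in Astro and 64.3 ± 18.8 in PAP (SD, n = 3); its log2 fold change was 0.01 ± 0.49 (adjusted p 0.992), with a sign that turned in several alternatives. Pmvk, the phosphomevalonate kinase, was at 114 to 123 CPM in Astro and spread from 39.8 to 174 in PAP (log2 fold change -0.29 ± 0.59, adjusted p 0.815). Mvk, the mevalonate kinase, was at 39.1, 55.8 and 59.2 CPM in Astro animals 1 to 3 and at 0, 15.5 and 43.0 in PAP, lower in each animal.

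Of the 11 enzymes from squalene to cholesterol, 0 were called in either direction (0 of 11 had an unadjusted p under 0.05), and the median log2 fold change was -0.60. Their summed level was 909, 1029 and 762 CPM in Astro animals 1 to 3 and 558, 503 and 627 CPM in PAP, so the sums did not overlap although most single genes did; without Msmo1 they were 491 to 646 and 223 to 553 CPM and overlapped. Msmo1, which removes methyl groups from the sterol ring, had the highest level per kilobase among them. It stood at 356, 383 and 271 CPM in Astro and at 122, 280 and 74.3 in PAP. It was lower in PAP in each animal, the groups overlapped, and the log2 fold change was -1.08 ± 0.53 (adjusted p 0.23, and -1.84 with 0.0285 without PAP animal 2, against 0.221 to 0.54 without any other single library). Fdft1, the squalene synthase that is the first enzyme given over to sterols, was even in Astro at 133, 120 and 138 CPM, and uneven in PAP at 110, 3.09 and 36.7, all below Astro (log2 fold change -1.38 ± 1.07, adjusted p 0.475). Sqle, the oxygenase that controls flow into the ring stage, ranged from 58.8 to 94.8 CPM in Astro and from 24.2 to 78.1 in PAP (log2 fold change -0.87 ± 0.67, adjusted p 0.478).

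The other ring enzymes varied in level between the PAP libraries. Cyp51, the lanosterol demethylase, had 80.6, 146 and 62.8 CPM in Astro, and its PAP libraries had 63.3, 10.3 and 297 CPM. Its direction was not stable: the log2 fold change was 0.36 ± 1.08 (adjusted p 0.88), -1.46 without PAP animal 3, -0.53 with the animal as a block and -0.31 in voom. Lss, which closes the ring, had 26.3 ± 3.27 CPM in Astro (mean ± SD, n = 3) and 34.9 ± 18.2 in PAP (0.41 ± 0.72, adjusted p 0.783), and it too changed sign, to -0.135, without PAP animal 3. Sc5d, the desaturase, had 105 to 132 CPM in Astro and 18.04 to 138 in PAP (-0.60 ± 0.72, adjusted p 0.668). Nsdhl, which works with Msmo1, was at 27.1 to 31.2 CPM in Astro and at 10.7, 21.1 and 0 in PAP, without overlap. Ebp, the sterol isomerase, Hsd17b7 and Tm7sf2, both sterol reductases, each had 1 or more PAP libraries far below their Astro range, the lowest at 0.991, 0.661 and 0.991 CPM. The highest PAP library of Ebp (28.1 CPM) and of Hsd17b7 (30.4) lay above all Astro libraries. Tm7sf2 was called lower without PAP animal 1 and in no other alternative. Exons of other genes overlap Fdft1 (Ctsb), Cyp51 (Akap9) and Lss on the opposite strand and Tm7sf2 (Vps51) on the same strand, so shared reads cannot be told apart. Dhcr7, the reductase of a last step, stood at 36.0, 35.9 and 20.9 CPM in Astro and at 0.51, 70.6 and 0 in PAP, and was called lower without PAP animal 2 and in no other alternative.

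**Figure D3:**
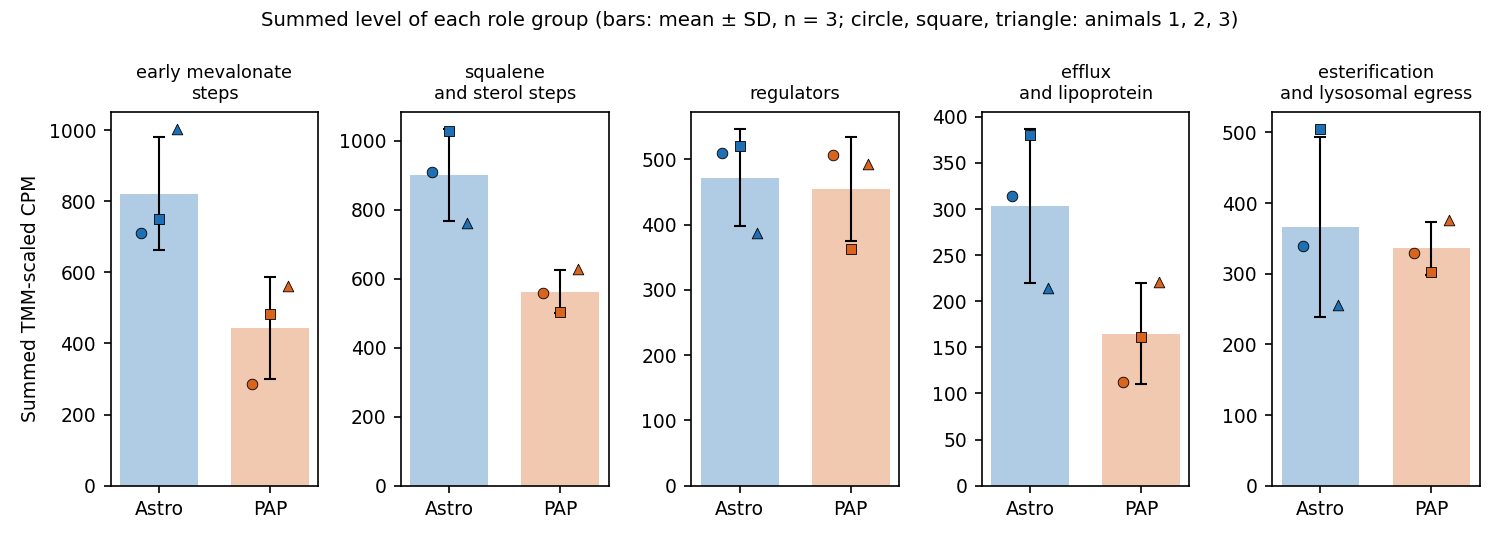
Summed TMM-scaled CPM of the members of each role in Astro (blue) and PAP (orange); bars are means, error bars SD (n = 3), and circles, squares and triangles are animals 1, 2 and 3. Sums of both enzyme groups do not overlap between compartments, which rests on Hmgcs1 in the early and Msmo1 in the later steps, while those of regulators (387 to 520 CPM in Astro, 362 to 507 in PAP) do.

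Of the 6 regulators 0 were called, 2 had an unadjusted p under 0.05 (Insig1 and Srebf1), and the median log2 fold change was -0.41. Insig1 (ENSMUSG00000045294, chromosome 5, 28071363 to 28078662) encodes the endoplasmic reticulum protein that retains the SREBP complex. Its level was 66.3, 55.6 and 47.5 CPM in Astro and 115, 198 and 122 CPM in PAP. All 3 PAP libraries were higher than all 3 Astro libraries, with means of 56.5 ± 9.47 and 145 ± 46.2 CPM (SD, n = 3). Its log2 fold change, 1.36 ± 0.43 (SE), did not pass in edgeR (adjusted p 0.0757). The 8 technical replicates of each PAP library all held counts, from 20 to 33 in animal 1, 42 to 58 in animal 2 and 38 to 60 in animal 3. Its relative Insig2 lay at 92.9, 113 and 66.9 CPM in Astro and 151, 87.6 and 139 in PAP, with overlap (log2 fold change 0.47 ± 0.43, adjusted p 0.561).

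The SREBP genes stood apart from each other in their values. Srebf1, whose products act mainly on fatty acid genes, was at 78.2, 69.2 and 35.9 CPM in Astro and at 5.61, 7.73 and 19.8 in PAP, lower in 3 of 3 animals without overlap. Its log2 fold change was -2.46 ± 0.82 (adjusted p 0.0859). Without PAP animal 3, the highest in PAP, it was -3.26 with an adjusted p of 0.0246, in a fit that called 4586 of 16523 tested genes. The adjusted p was 0.0893 to 0.376 without any other single library. Exons of Rai1, on the opposite strand, overlap Srebf1. Srebf2, the main driver of sterol synthesis genes, was at 92.7 to 112 CPM in Astro and at 53.6 to 193 in PAP, with a log2 fold change of 0.16 ± 0.54 (adjusted p 0.891) that turned to -0.48 without PAP animal 3. The difference between the Srebf1 and Srebf2 fold changes was not tested. Nr1h2, liver X receptor beta, stood at 121, 108 and 92.9 CPM in Astro and at 68.4, 15.5 and 4.63 in PAP, without overlap (-1.87 ± 0.98, adjusted p 0.269, and -3.47 with 0.0288 without PAP animal 1, the highest, against 0.196 to 0.559 without any other single library). Scap, the escort of the SREBPs, was at 35.5 to 61.6 CPM in Astro and at 64.8, 0 and 14.2 in PAP; an opposite-strand gene overlaps its exons.

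**Figure D4:**
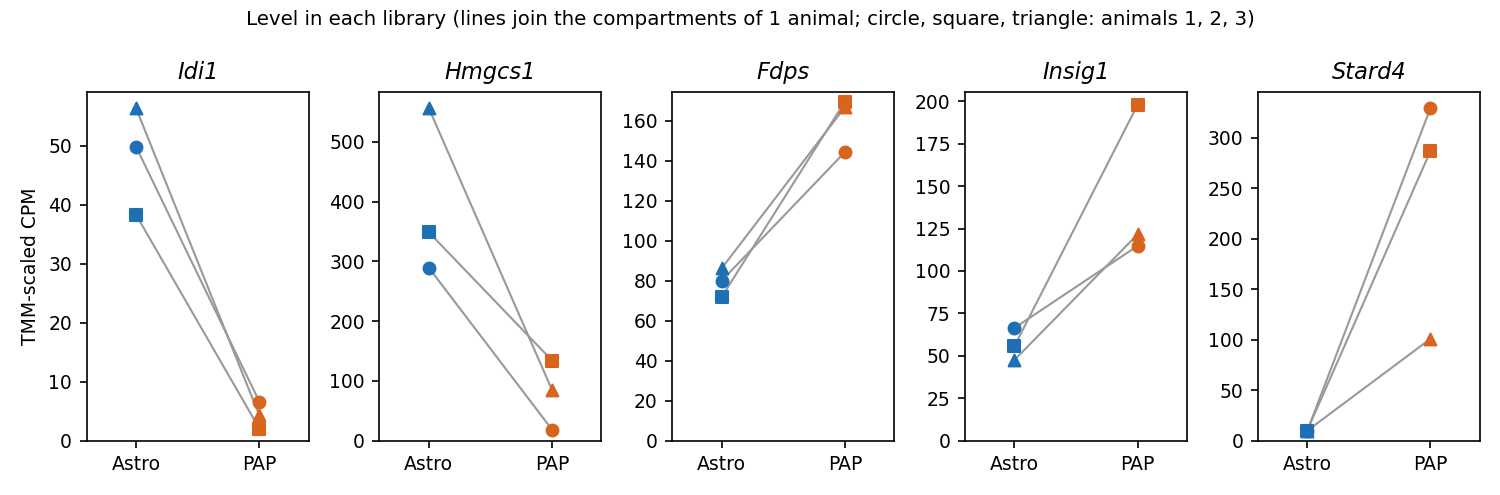
TMM-scaled CPM of Idi1, Hmgcs1, Fdps, Insig1 and Stard4 in Astro and PAP, with lines joining the libraries of 1 animal (circle, square and triangle for animals 1, 2 and 3). Idi1 and Hmgcs1 are lower in PAP in all 3 animals, and Fdps, Insig1 and Stard4 higher; Idi1 and Stard4 passed the test. Each panel has its own vertical scale from 0.

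Of the 4 genes of efflux and lipoprotein handling, 0 were called (0 with an unadjusted p under 0.05), and their groups overlapped in all 4. Lcat, which esterifies cholesterol on lipoprotein particles and is secreted by astrocytes, stood at 250, 287 and 164 CPM in Astro and at 31.1, 36.6 and 188 in PAP. The PAP library of animal 3 was within the Astro range and the other PAP libraries were far below it; the log2 fold change was -1.45 ± 0.77 (adjusted p 0.278) and, without PAP animal 3, -2.85 with an adjusted p of 0.0182, against 0.344 to 0.6 without any other single library. Lrp1, a receptor for apolipoprotein E particles, was at 35.2 to 64.8 CPM in Astro and 31.4 to 81.1 in PAP (0.22 ± 0.62, adjusted p 0.873). Abca1, the exporter that loads cholesterol onto apolipoproteins, was at 27.7, 25.7 and 5.79 CPM in Astro and at 0.51, 68.6 and 0.33 in PAP, so that a single PAP library carried nearly all of its PAP counts; without that library, and in no other alternative, it was called lower. Abcg1, an exporter to formed particles, was the lowest member in both compartments, at 1.13 to 3.23 CPM in Astro and 0 to 2.06 in PAP, close to the PAP floor.

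The 3 genes of ester storage and lysosomal egress also held 0 calls, with 1 unadjusted p under 0.05. Npc2 and Npc1 act together in moving cholesterol out of the lysosome. The difference between their fold changes was not tested. Npc2, the soluble carrier, was at 214, 380 and 183 CPM in Astro and at 254, 263 and 363 in PAP, with overlap and a log2 fold change of 0.18 ± 0.38 (adjusted p 0.817). Npc1, the membrane partner, was at 27.8, 51.1 and 25.0 CPM in Astro and at 2.55, 3.61 and 13.2 in PAP, without overlap (-2.41 ± 0.99, adjusted p 0.158, and -3.55 with 0.0261 without PAP animal 3, against 0.143 to 0.539 without any other single library). Opposite-strand genes overlap Npc1 exons. Soat1, which makes cholesterol esters inside the cell, was at 47.6 to 97.3 CPM in Astro and at 73.0, 35.1 and 0 in PAP.

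Per kilobase of the principal transcript, the order of levels differed somewhat between compartments. In Astro the highest members were Lcat (174 CPM per kb), Msmo1 (165), Hmgcs1 (115), Pmvk (100.3) and Npc2 (78.4). In PAP they were Fdps (116 CPM per kb), Npc2 (88.9), Pmvk (82.1), Msmo1 (77.7) and Lcat (63.6). In PAP the spread between animals of Pmvk, Msmo1 and Lcat was as large as the gaps in this order. Fdps moved from rank 6 to rank 1 and Insig1 from rank 16 to rank 6, while Hmgcs1 moved from 3 to 11 and Idi1 from 18 to 29. Across the 31 members the levels per kb of the compartments had a Spearman correlation of 0.836, a description over genes that come from the same libraries. The log2 fold change had a Spearman correlation of 0.10 with transcript length and of -0.10 with the Astro level over the same 31 genes.

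The spread between animals was wider in PAP. The SD of log2(CPM + 1) over 3 libraries was larger in PAP than in Astro in 29 of 31 members, with medians of 0.32 in Astro and 1.06 in PAP, beside 0.29 and 1.26 over all tested genes. Mvk, Dhcr7, Scap, Abca1 and Soat1, 5 members, had no more than 3 counts in some PAP library but 100 or more in a different one, and 16.4% of tested genes had this pattern in PAP; in Astro it was seen in 0 members and 0.116% of tested genes. The 137 Dhcr7 counts of PAP animal 2 came from all 8 replicates at 11 to 22 each, while the 8 replicates of animal 3 held 0. Technical replicates share whatever came before they were split, so this evenness covers counting error only. The library that was high differed between genes, since the highest PAP value was that of animal 1 in 11 members, animal 2 in 9 and animal 3 in 11. Fdps (SD 0.13), Npc2 (0.28), Insig2 (0.42) and Insig1 (0.43) were the steadiest members in PAP.

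**Figure D5:**
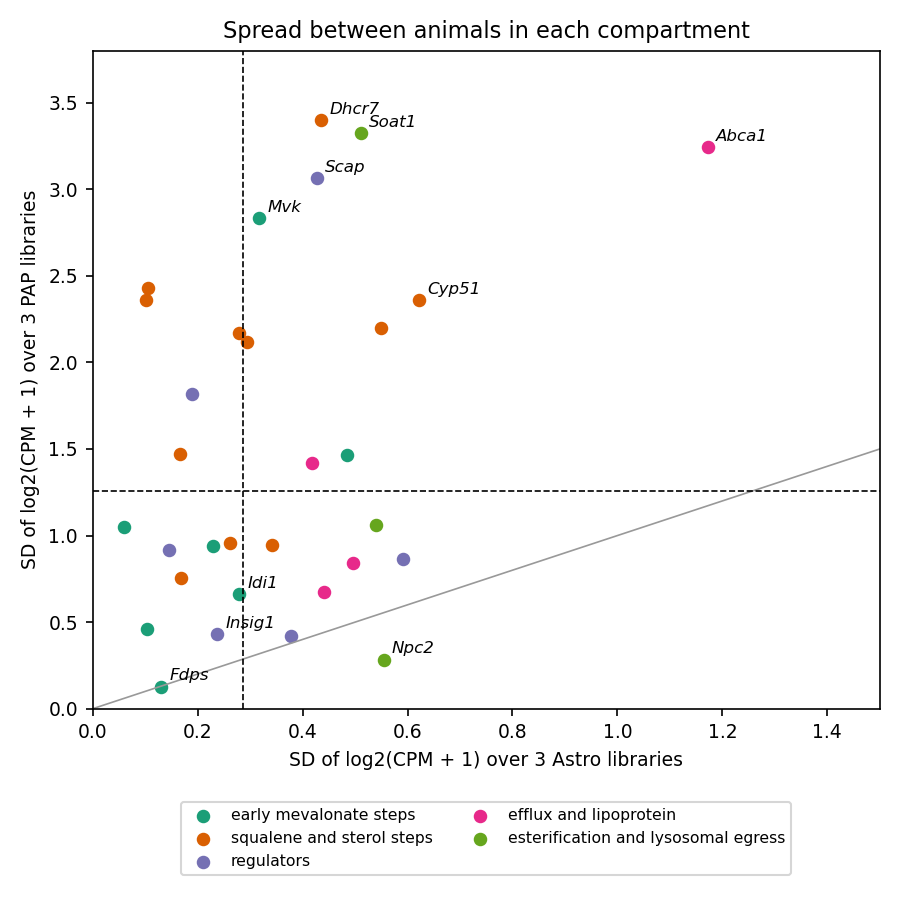
SD of log2(CPM + 1) over the 3 PAP libraries against that over the 3 Astro libraries, for each member, coloured by role. The grey line marks equal spread and dashed lines mark the medians of all tested genes (0.29 in Astro, 1.26 in PAP). Nearly all members lie above the grey line, Dhcr7 highest (3.40), with Fdps at 0.13 and Npc2 below the line.

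A list of 36 further genes of sterol sensing, uptake, transport and turnover was read beside the members, and 34 were tested. In PAP 1 was called higher and 3 lower, 11.8% of those tested, against 21.3% of all tested genes (5.92% higher and 15.4% lower). The median log2 fold change was -0.88 beside -0.53 over all tested genes. Stard4 (ENSMUSG00000024378, chromosome 18, 33199355 to 33213862), a carrier that moves cholesterol between membranes, was the gene called higher. It stood at 9.35, 9.86 and 9.75 CPM in Astro and at 329, 287 and 101 CPM in PAP. All PAP libraries lay far above Astro, and the mean, 9.65 ± 0.269 CPM in Astro, rose to 239 ± 121 CPM in PAP (SD, n = 3). By edgeR the log2 fold change was 4.63 ± 0.59 (SE), adjusted p 0.0131. With the animal as a block the value was 4.47 and the adjusted p 0.0791, and without Astro animal 1, 2 or 3 the adjusted p was 0.081, 0.0864 and 0.0672 with log2 fold changes of 4.60, 4.68 and 4.66; the call ended in fits where few genes of any kind were called, as given for Idi1.

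The 3 genes called lower were all near or at 0 counts in PAP, so that they passed the filter on low counts only through Astro and could be called in that direction alone. Mbtps2, a protease that releases the active SREBP, had 81, 90 and 60 counts in Astro and 0 in each PAP library, at least 3.12-fold lower against a floor of 3 counts per PAP library (adjusted p 0.0208). Erlin1, an endoplasmic reticulum protein that restrains SREBP activation, had 269, 136 and 84 counts in Astro and 0 in PAP, at least 6.56-fold lower (adjusted p 0.0238). Mylip, the ligase that marks lipoprotein receptors for breakdown, had 127, 203 and 201 counts in Astro and 0, 1 and 0 in PAP, 66.8-fold lower when that 1 count is set against the pooled PAP total, with a 95% exact Poisson interval of 11.99 to 2639 that covers counting error only (adjusted p 0.025). The ratio of its mean CPM was 56.1. With the animal as a block the adjusted p of each was 0.206, in a fit that called 133 of all genes. Without 1 Astro library, Erlin1 (adjusted p 0.076 to 0.0966) and Mylip (0.0877 to 0.0989) were no longer called. Mbtps2 was tested only in the fit without Astro animal 3 (adjusted p 0.0672). The Mylip log2 fold change was -6.03 to -5.63 in those fits and -5.87 with all libraries. For Mbtps2 and Erlin1, at 0 counts in PAP, a fitted fold depends on the prior count and is not given. With libraries thinned to equal depth Mylip was called (adjusted p 0.0232), and Mbtps2 and Erlin1 did not pass the filter on low counts. A gene on the same strand, Yy2, overlaps Mbtps2.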

How the data were processed

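Per the labels, 48 samples are 8 technical replicates of each of 3 animals and 2 compartments; RNA was amplified with a SMART-Seq kit and libraries were made with Nextera XT. The deposited files hold raw counts per Ensembl gene, with no scaling by the authors, and no molecular identifiers are mentioned in the labels. The submitters' processing notes name bcl2fastq 2.18.0.12, Trim Galore 0.4.1, STAR 2.5.2b, SAMtools, HTSeq 0.5.3 and mm10; annotation and strand setting are not given in the sources used here.

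Counts were summed per library. Symbols and positions (GRCm38, the same build) came from GENCODE M21, which held 47224 of 47643 IDs, and lengths from the APPRIS principal transcript, the longest where there were several. In edgeR 4.0.16 (R 4.3.3), genes passing filterByExpr (minimum count 10) were scaled by TMM and tested with the quasi-likelihood test of group alone. Benjamini-Hochberg adjustment ran over all 14618 genes, with a threshold of 0.05. The SE is the log2 fold change divided by the square root of F. The fit takes the same spread per gene for both groups, while the coefficient of variation between libraries was 0.334 in Astro and 1.58 in PAP. Its adjusted p values thus assume an equal spread that these libraries do not show. The fit was tested on simulated data with large changes put in. It found them at a spread far below the one estimated here, and few of them at the estimated spread. At the estimated spread it found none with the block by animal. The simulation also gave both groups the same spread per gene, so it cannot show how the test behaves at unequal spreads. Animal numbers pair the libraries, since both compartments came from the same animals; deviations from group means of same-numbered libraries correlated at 0.033, 0.018 and -0.027. Alternatives included a block by animal, DESeq2 1.42.0, limma 3.58.1 voom with a variance weight per group, other scalings and filters, equal depth and leaving out each library. Values of every member are given; fold changes are printed for members past the threshold or with more than 3 counts in every library, and for genes of the further list past the threshold; those of Abca1 and Ebp with the block were added after their values were seen. Members and lists were chosen with earlier results of these data known.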

Additional observations from a re-analysis of the deposited data

How the results depend on the processing

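The number of members called depended on the fit. It was 0 with the replicate block by animal, without a filter on low counts and at equal depth, and 7 with the DESeq2 Wald test (Fdps and Insig1 higher; Acat2, Hmgcs1, Idi1, Npc1 and Srebf1 lower). With only genes averaging 100 counts or more, 1 member passed, Fdps (adjusted p 0.0488), in place of Idi1. Leaving out 1 library gave 0 to 5 members: 0 without any Astro library, and 5, 4 and 4 without PAP animal 1, 2 and 3. The fits without PAP animal 1, 2 and 3 called 4157 of 16390, 4037 of 16431 and 4586 of 16523 tested genes. Over all genes, 3115 were called; the replicate block gave 133, the DESeq2 Wald test 5141, a mean of at least 100 counts 1414, equal depth 1688, and leaving out 1 library 115 to 4586. The count without a filter was 2120. The cause was not tested. Idi1 stayed negative in all 16 alternatives, from -3.95 to -3.21, and passed in 9. Hmgcs1 was negative and Insig1 and Fdps positive in all 16, passing in 2, 1 and 2. Scaling by library size alone shifted the median log2 fold change over all genes to -0.37, from -0.53. Over all members, 18 to 25 had a negative log2 fold change across the alternatives, against 20; with the replicate block Abca1 (-3.07) and Ebp (-0.73) were among those that turned. Among the 21 members with more than 3 counts in every library, direction reversed for Mvd with the replicate block (-0.028), without a filter (-0.153) and in technical replicates 5 to 8 (-0.266), Cyp51 with the block (-0.528) and in voom (-0.308), and Srebf2 with the block (-0.016) and without a filter (-0.001). Across the fits leaving out 1 library, Pmvk ran from -1.061 to 0.044, Mvd from -0.22 to 0.194, Lss from -0.135 to 0.65, Cyp51 from -1.457 to 0.841, Srebf2 from -0.478 to 0.447, Lrp1 from -0.202 to 0.537 and Npc2 from -0.067 to 0.6. In those fits Fdft1 (-2.748 to -0.889), Sqle (-1.701 to -0.649) and Sc5d (-1.381 to -0.196) kept their sign but moved in size. The block ended the calls of Idi1, the only member called, and of the 4 further genes named. At the PAP depth, 3 counts equal 1.006 to 1.639 CPM, and Idi1 in PAP rests on 4 to 13 counts.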
